A study of Danio rerio with 4 samples.

Results

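Oxidative phosphorylation genes were followed in adult zebrafish hearts by RNA sequencing, in the uninjured organ and 3 days post-amputation (3 dpa). The members were every gene ID whose symbol marks a subunit, assembly factor or inhibitor of respiratory complexes I to V (symbols beginning with nduf, sdh, uqcr, cox4 to cox8 or atp5), cytochrome c1, cytochrome c and the protein-coding genes of the mitochondrial genome. By this rule 124 of 32520 gene IDs were members, 111 in the nuclear genome and 13 in the mitochondrial genome. The rule used symbols and no measured value, but it was set with earlier results of these data known.

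The fish were of the Ekkwill strain and carried either the wild-type LEN+/+ genotype or a homozygous deletion of LEN (LEN[delta]/[delta]), a regeneration enhancer linked to leptin b. Each genotype was sampled uninjured and at 3 dpa, which gave 4 groups with 1 library each. The number of hearts pooled in a library, the age in months and the sex of the fish are not given in the labels. With 1 library per group nothing here has a replicate check and no p-value is given, so intervals compare libraries and not conditions.

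Oxidative phosphorylation makes most of the ATP of a beating heart. Complexes I and II pass electrons from NADH and succinate to coenzyme Q, complex III hands them to cytochrome c, and complex IV (cytochrome c oxidase) reduces oxygen with them. Complexes I, III and IV pump protons across the inner mitochondrial membrane, and complex V (ATP synthase) uses their return to make ATP. All complexes except complex II contain subunits from both genomes, and several complex IV subunits exist in vertebrates as paired copies used by different tissues.

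Values are read counts as CPM, each a share of the TMM-scaled library total, and they compare a gene only with itself across libraries, since gene lengths were not used. Unless stated otherwise, values in 4 libraries are given in the order wild-type uninjured, mutant uninjured, wild-type 3 dpa and mutant 3 dpa. A log2 ratio is followed by its exact 95% counting interval. A gene is said to have risen or fallen when it differed at least 2-fold and the interval excluded equal abundance, and counts at a 1.5-fold limit are given beside it. Of the 124 members, 120 reached 1 scaled CPM in at least 1 library, 107 nuclear and all 13 mitochondrial. The other 4 were almost without reads: NDUFS1 (ENSDARG00000028546) had 0, 0, 1 and 0 reads, NDUFB4 (ENSDARG00000019332) 0, 2, 0 and 0, ndufa4l2b 1, 0, 3 and 0, and cycsa none in any library. NDUFA4L2 passed this minimum only through the 3 dpa libraries, where it was high. A count of 0 allows up to 0.0949, 0.094, 0.0856 and 0.0863 CPM in the 4 libraries.

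The libraries held 31618442, 31898971, 35026983 and 34757291 counts. Cardiac tissue was plain in each of them, with MYL7, the atrial and ventricular myosin light chain of the zebrafish heart, at 13250, 13360, 6913 and 6326 scaled CPM. The gene linked to LEN, lepb, had 2, 2, 78 and 2 reads, so this check separates the genotypes at 3 dpa but not in uninjured hearts. The wild-type uninjured library stood apart in markers of hepatocytes. Of the 13 hepatocyte markers tested, 12 were lower by at least 2-fold in the mutant uninjured library, with a median log2 ratio of -8.11 over the 13. All 15 IDs on the list, including the marker that did not pass, summed to 2021, 552.7, 624.4 and 672 scaled CPM. The liver fatty acid binding protein gene fabp10a had 3748, 12, 0 and 7 reads and the apolipoprotein gene apoa1b had 8972, 7, 3 and 6. This library enters injury in wild type, genotype in uninjured hearts and the difference between the injury ratios of mutant and wild type. For that difference the hepatocyte markers had a median of 9.26. The part of the hepatocyte markers in these comparisons was not tested. The injury comparison in the mutant and the genotype comparison at 3 dpa do not use this library.

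At 3 dpa the oxidative phosphorylation genes were lower as a group in both genotypes. The members summed to 18.8%, 19.2%, 13.2% and 13.8% of all counts. Of the 120 tested members, 113 had a log2 ratio below 0 in wild type and 109 in mutants, with medians of -0.74 and -0.68, whereas the medians over all 16509 tested genes were 0.03 and 0.04. The group moved by a moderate and even amount. At the 1.5-fold limit 91 members were lower and 4 higher in wild type, against a background of 16.4% of all tested genes lower and 22.3% higher. In the mutant 78 were lower and 4 higher, against 15.4% and 23.4%. Few members reached 2-fold. In wild type 8 fell (6.67%) and 2 rose (1.67%), where 6.76% of all tested genes fell and 13.2% rose. In the mutant 2 fell (1.67%) and 4 rose (3.33%), where 5.62% fell and 14.7% rose. The share that fell was near the background in wild type and below it in the mutant, and this depended on the scaling. With upper-quartile scaling 20 and 14 members fell, above backgrounds of 8.75% and 8.02%. Under scaling by total count 2 and 1 fell, below backgrounds of 3.78% and 2.11%. DESeq2 size factors gave 10 and 7, near backgrounds of 7.43% and 6.75%. Below 0 were 94.2% of members and 48% of all tested genes in wild type, and 90.8% and 47.2% in the mutant.

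**Figure D1:**
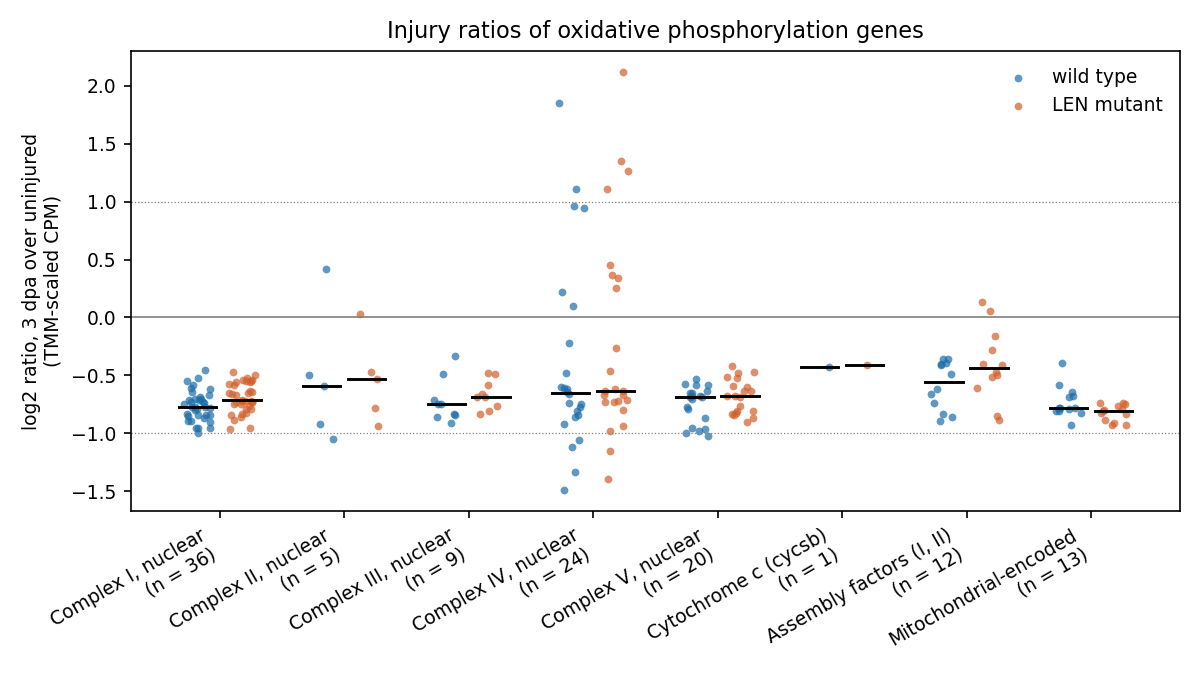
Log2 ratio of 3 dpa over uninjured (vertical axis) for every tested member, in columns by complex and genome of origin, with wild type and LEN mutant in separate colours, medians as black bars and 2-fold as dotted lines. Most points lie between -1 and -0.4 in both genotypes, and complex IV alone has nuclear members above 1. The complex IV column includes COX7A2L and the complex V column the 2 inhibitor genes.

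Markers of several cell types moved with the same comparison, and their part in the result was not tested. The 18 tested cardiomyocyte markers had medians of -0.78 in wild type and -1.02 in the mutant, and 4 and 9 of them fell. Their summed level was 61480, 65600, 33140 and 31930 scaled CPM, a log2 ratio of -0.89 and -1.04, beside -0.83 and -0.73 for the summed nuclear members and -0.78 and -0.80 for the summed mitochondrial ones. Fibroblast and epicardial markers (13 tested) had medians of 2.17 and 2.07, with sums of 2987, 3066, 18820 and 18180. Leukocyte markers (14 tested) had medians of 1.52 and 1.92, with sums of 310.8, 316.1, 730.8 and 768.3. Erythroid markers (7 tested) had medians of 0.89 and 1.19, with sums of 5470, 3713, 11020 and 8564. In a bulk sample, fewer cells of a type and less RNA per cell cannot be told apart.

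Complex I, the NADH dehydrogenase, was lower in every tested subunit. The 36 nuclear subunits had medians of -0.77 in wild type and -0.71 in the mutant, and all 36 were below 0 in both. The 6 tested core subunits, which carry the flavin and the iron-sulphur clusters, had medians of -0.86 and -0.76, and the 30 accessory subunits had -0.76 and -0.69. NDUFV1, which binds NADH and the flavin, had 434, 419, 262 and 282 scaled CPM. Both 3 dpa libraries were below both uninjured ones, with log2 ratios of -0.73 (-0.77 to -0.69) in wild type and -0.57 (-0.61 to -0.53) in the mutant. Its partner NDUFV2, an iron-sulphur subunit, had 224, 202, 112 and 117 scaled CPM. It fell in wild type by the narrowest margin, at -1.0 (-1.06 to -0.94), and had -0.79 (-0.85 to -0.74) in the mutant. NDUFS8, an iron-sulphur subunit on the path to coenzyme Q, had ratios of -0.84 and -0.73. The accessory subunit NDUFB7 had the lowest mean ratio of the complex, with 202, 175, 105 and 90.2 scaled CPM and -0.95 in both genotypes.

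The complex I assembly factors, which help build the complex and are not part of it, were lower by less in the median but not in the sum. Their summed level had log2 ratios of -0.80 in wild type and -0.73 in the mutant, beside -0.78 and -0.69 for the nuclear subunits. The 8 tested assembly factors had medians of -0.58 in wild type and -0.45 in the mutant, and none reached 2-fold. NDUFAF8 was the highest among them, on 71, 58, 73 and 86 reads. Its ratios of -0.36 (-0.87 to 0.12) and 0.13 (-0.37 to 0.64) both had intervals that included 0.

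Complex II, succinate dehydrogenase, also works in the citric acid cycle. SDHA, its flavoprotein and catalytic subunit, had 599, 592, 290 and 308 scaled CPM. The uninjured libraries were nearly equal and both injured libraries were far below them. SDHA fell in wild type, at -1.05 (-1.08 to -1.01), and had -0.94 (-0.98 to -0.91) in the mutant. The iron-sulphur subunit SDHB had 225, 201, 119 and 117 scaled CPM, with ratios of -0.92 and -0.78. Membrane anchor SDHD (ENSDARG00000030139) had less of a difference, at -0.50 and -0.47. A second ID with the symbol SDHD (ENSDARG00000055712) had 40, 34, 72 and 47 reads and ratios of 0.42 (-0.14 to 1.03) and 0.03 (-0.64 to 0.71), within counting error. The 4 complex II assembly factors had medians of -0.51 and -0.44.

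Complex III, the cytochrome bc1 complex, had 9 nuclear subunits below 0 in both genotypes, with medians of -0.75 and -0.69. None of them reached 2-fold. The core protein UQCRC1 had 647, 656, 395 and 406 scaled CPM, with the 2 genotypes close to each other before and after injury and ratios of -0.71 and -0.69. CYC1, the haem protein cytochrome c1, had 562, 521, 317 and 330, with ratios of -0.83 and -0.66. The Rieske iron-sulphur protein UQCRFS1 had 532, 528, 293 and 296, with ratios of -0.86 and -0.83. The hinge protein UQCRH was less affected, at -0.49 in each genotype. Cytochrome c itself, the carrier between complexes III and IV, was among the least lowered members. Its gene cycsb had 710, 751, 529 and 565 scaled CPM, with ratios of -0.43 (-0.45 to -0.40) and -0.41 (-0.44 to -0.38).

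Complex V was lower throughout. All 18 nuclear subunits were below 0 in both genotypes, with medians of -0.69 and -0.68. The 5 subunits of the catalytic F1 head had medians of -0.95 and -0.81, the 4 of the peripheral stalk -0.78 and -0.79, and the 6 accessory membrane subunits -0.66 and -0.61. ATP5F1B, the catalytic beta subunit, had 4047, 3707, 2098 and 2105 scaled CPM. Injured libraries of both genotypes were nearly equal, with ratios of -0.95 (-0.96 to -0.93) and -0.82 (-0.83 to -0.80). ATP5F1A, the alpha subunit, had 3043, 2824, 1499 and 1516 scaled CPM. It fell in wild type, at -1.02 (-1.04 to -1.01), and had -0.90 (-0.91 to -0.88) in the mutant.

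The c-ring of complex V, the rotor through which protons pass, is made of identical subunits encoded by several genes. Among the 3 copies measured, atp5mc3b had 971, 827, 492 and 466 scaled CPM and ratios of -0.98 and -0.83. Copies atp5mc1 and ATP5MC3 were lowered less, at -0.58 and -0.57 in wild type and -0.48 and -0.52 in the mutant. For each 100 reads of atp5mc3b there were 45.6, 49.1, 60.2 and 62.6 reads of atp5mc1. The ATPase inhibitors, which in mammals block ATP hydrolysis by the enzyme when the proton gradient is lost, were also unequal. Inhibitor gene atp5if1b had 268, 222, 134 and 122 scaled CPM and fell in wild type, at -1.0 (-1.05 to -0.95), with -0.87 in the mutant. Its paralogue atp5if1a had -0.58 and -0.42.

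Complex IV had the widest spread, and every member that rose belonged to it. Its 23 tested nuclear members had medians of -0.66 in wild type and -0.63 in the mutant, but ranged from -1.49 to 1.85 and from -1.39 to 2.12. Both upper ends are NDUFA4L2, which passed the 1 CPM minimum only through the 3 dpa libraries, where it was high. The quartiles, which depend less on this gene, were -0.85 and -0.06 in wild type and -0.73 and 0.36 in the mutant. In complex I the nuclear ranges were -1.0 to -0.45 and -0.96 to -0.47, with quartiles of -0.85 and -0.7 and of -0.77 and -0.57. In wild type 4 nuclear members of complex IV fell and 2 rose, where 6.76% of all tested genes fell and 13.2% rose. In the mutant 2 fell and 4 rose, where 5.62% of all tested genes fell and 14.7% rose. With 23 members tested, the numbers that rose were near these shares. The divergence ran within families of paralogous subunits, where 1 copy was lower after injury and another higher.

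COX7A was one such family. In mammals COX7A1 is the subunit of heart and skeletal muscle and COX7A2 the one of liver and other tissues. Zebrafish cox7a1 had 366, 307, 145 and 117 scaled CPM, with both injured libraries far below both uninjured ones. It fell in both genotypes, at -1.33 (-1.38 to -1.29) and -1.39 (-1.44 to -1.34). COX7A2 (ENSDARG00000110700) had 7.86, 5.30, 15.1 and 12.8 scaled CPM and lay higher in both injured libraries. It rose in the mutant, at 1.26 (1.0 to 1.54), and had 0.94 (0.72 to 1.17) in wild type. The other COX7A2 gene (ENSDARG00000053217) had 30.7, 27.2, 35.9 and 34.4 scaled CPM, with small ratios of 0.22 and 0.34. For each 100 reads of cox7a1 there were 8.39, 8.84, 24.7 and 29.4 reads of this copy and 2.15, 1.73, 10.4 and 10.9 of the first. Such a ratio of reads does not depend on the scaling of the libraries, although it is not corrected for gene length. COX7A2L, which in mammals joins complexes III and IV into supercomplexes, behaved like the bulk of the members, at -0.62 and -0.67.

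COX6A likewise has a heart and muscle form (COX6A2) and a form of other tissues (COX6A1) in mammals, but the names used here give both zebrafish genes the symbol COX6A1. The copy ENSDARG00000054588 had 678, 556, 312 and 251 scaled CPM. It fell in both genotypes, at -1.12 (-1.15 to -1.09) and -1.15 (-1.18 to -1.11). The copy ENSDARG00000022438, written cox6a1, had 24.9, 21.4, 54.0 and 54.4 scaled CPM. It rose in both, at 1.11 (0.99 to 1.24) and 1.35 (1.22 to 1.48). Reads of the second copy per 100 of the first were 3.68 and 3.84 in the uninjured libraries and 17.3 and 21.7 at 3 dpa.

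COX5B, a subunit that binds zinc, was split in the same manner. ENSDARG00000068738 had 426, 393, 205 and 200 scaled CPM. This copy fell in wild type, at -1.06 (-1.10 to -1.02), and had -0.98 (-1.02 to -0.93) in the mutant. ENSDARG00000015978 had 39.6, 33.4, 77.2 and 72.3 scaled CPM and was higher in both injured libraries. It rose in the mutant, at 1.11 (1.01 to 1.22), and had 0.96 (0.86 to 1.06) in wild type. Per 100 reads of the first copy, the second had 9.31, 8.50, 37.7 and 36.2. A further ID with the symbol COX5B (ENSDARG00000113254) had only 32, 26, 30 and 49 reads.

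**Figure D2:**
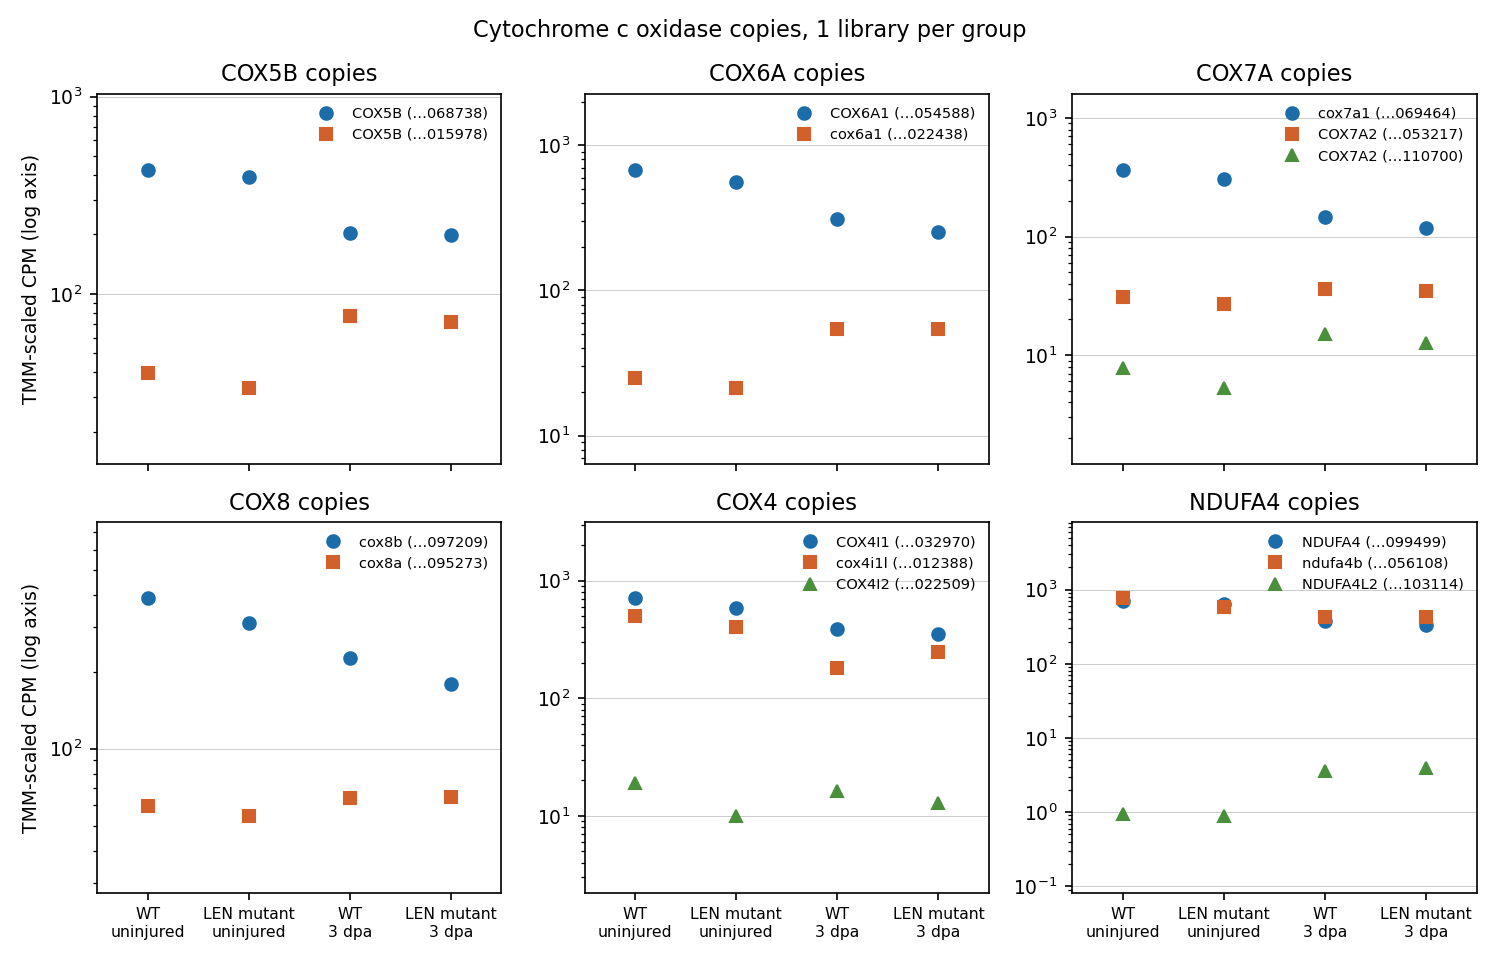
Scaled CPM (log axis) of paired copies of complex IV subunits in the 4 libraries, 1 panel per family and 1 marker shape per copy, with no error bars. The markers of cox7a1, COX6A1 and COX5B (ENSDARG00000068738) are lower in the 3 dpa libraries, and those of their partner copies are higher. The COX5B copy with 26 to 49 reads per library is left out.

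NDUFA4 was first assigned to complex I and is now known as a subunit of complex IV, and its relative NDUFA4L2 is induced by low oxygen in mammals. NDUFA4 had 709, 635, 373 and 330 scaled CPM, with ratios of -0.92 and -0.94. A second abundant copy, ndufa4b, had 763, 592, 436 and 431, with ratios of -0.81 and -0.46. NDUFA4L2 had the highest ratio of all members in both genotypes, on few reads. It had 27, 25, 136 and 155 reads, or 0.939, 0.872, 3.55 and 3.99 scaled CPM. NDUFA4L2 rose in both genotypes, at 1.85 (1.31 to 2.57) and 2.12 (1.58 to 2.87). For each 100 reads of NDUFA4 it still had only 0.95 and 1.21 reads at 3 dpa, after 0.132 and 0.137 in the uninjured libraries.

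In the COX8 pair each copy changed by less than 2-fold after injury. In rodents COX8B is the heart and muscle form and COX8A that of other tissues. Zebrafish cox8b had 386, 311, 226 and 178 scaled CPM, with ratios of -0.77 and -0.80. Gene cox8a had 59.6, 54.4, 64.0 and 64.7, with ratios of 0.10 (0.01 to 0.19) and 0.25 (0.16 to 0.34), and the sign of the wild-type value depended on the scaling, from -0.00 to 0.37. Per 100 reads of cox8b there were 15.4, 17.5, 28.3 and 36.3 reads of cox8a. This ratio of reads changed 1.84-fold in wild type and 2.08-fold in the mutant. COX6B has a testis form, COX6B2, in mammals. Both zebrafish copies were lower, cox6b2 at -0.64 and -0.67 and cox6b1 at -0.60 and -0.26, and the mutant value of cox6b1 changed sign under another scaling. The copies of COX5A were both lowered, at -0.75 and -0.73 for COX5A and at -0.84 and -0.71 for cox5aa.

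Among members with over 100 reads in every library, COX4 genes had the widest gaps between the genotypes. Subunit IV regulates the oxidase, and its second isoform COX4I2 is used in lung and under low oxygen in mammals. COX4I1 had 706, 585, 389 and 353 scaled CPM, with ratios of -0.86 (-0.89 to -0.83) and -0.73 (-0.76 to -0.70). The copy cox4i1l had 505, 403, 179 and 245 scaled CPM, lowest in the injured wild-type library. It fell in wild type, at -1.49 (-1.54 to -1.45), and had -0.72 (-0.76 to -0.68) in the mutant, a difference of 0.78 (0.72 to 0.83). COX4I2 had 542, 283, 619 and 498 reads, or 18.8, 9.88, 16.1 and 12.8 scaled CPM, and was lowest in the mutant uninjured library. Its ratios were -0.22 (-0.39 to -0.05) in wild type and 0.37 (0.16 to 0.59) in the mutant, a difference of 0.60 (0.33 to 0.86). Scaling by total count turned the wild-type value to 0.04.

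**Figure D3:**
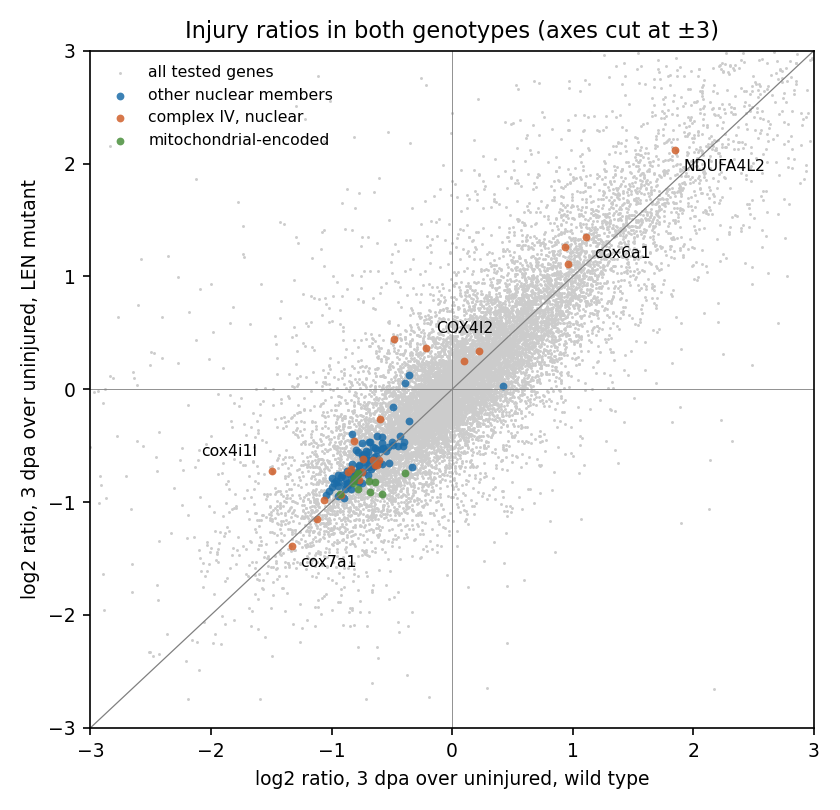
Log2 ratio of 3 dpa over uninjured in wild type (horizontal axis) against that in the LEN mutant (vertical axis), with 1 coloured point per tested member, all tested genes in grey, the line of equality, and axes that end at -3 and 3. Most of the 120 points lie close together below 0 on both axes, and the members of complex IV spread along the diagonal up to NDUFA4L2.

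The injury ratios of the members in wild type and in the mutant were correlated. Over the 120 tested members the 2 injury ratios had a Pearson r of 0.923 and a Spearman rho of 0.781. They had the same sign in 116 of the 120 members and in 13520 of all 16509 tested genes. Over all 16509 tested genes r was 0.694 and rho was 0.802, so by rank the members were no more alike than genes at large. These values are descriptions across genes, which are not replicates. The members that passed 2-fold in the same direction in both genotypes were cox7a1, COX6A1 (ENSDARG00000054588), cox6a1 (ENSDARG00000022438) and NDUFA4L2. These were 4 of the 120 tested members, where 2254 of all 16509 tested genes did so, and thus fewer than their share. The difference of the injury ratios, mutant minus wild type, passed 2-fold in no member, where 1.48% of all tested genes passed it in the lower and 4.34% in the higher direction. Its median over the members was 0.06, and it uses the wild-type uninjured library, which held hepatocyte markers. At the 1.5-fold limit COX4I2 and cox4i1l passed it, both higher in the mutant, against a background of 4.43% lower and 8.01% higher, so the members that passed were fewer than their share.

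The 13 mitochondrial genes are read from one circular genome, mostly as long transcripts that are then cut. They took 16.1%, 16.7%, 11.3% and 11.9% of all counts, against 2.78%, 2.46%, 1.88% and 1.85% for the nuclear members. All 13 were lower after injury in both genotypes, with medians of -0.78 (range -0.93 to -0.39) in wild type and -0.81 (-0.93 to -0.74) in the mutant. None reached 2-fold, and 11 and 13 of them were lower by at least 1.5-fold. The amount was close to that of the nuclear structural subunits, whose medians were -0.74 and -0.67. Reads of the mitochondrial members per nuclear member read were 5.78, 6.80, 5.99 and 6.46.

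MT-CO1, the catalytic subunit of complex IV, had 1272587, 1298803, 964902 and 1021215 reads, the most of any member, with ratios of -0.81 and -0.79. MT-CYB, cytochrome b of complex III, had 685066, 734718, 518432 and 561383 reads, with ratios of -0.82 and -0.83. MT-ND6, which lies on the other strand of the genome than the remaining protein genes, had -0.93 in each genotype. The subunits of complex IV (MT-CO1, MT-CO2 and MT-CO3) varied little, from -0.81 to -0.78 in wild type and from -0.79 to -0.74 in the mutant. MT-ATP6, the membrane channel subunit of complex V, had -0.78 and -0.75.

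Gaps between the genotypes were wider in the genes of complex I and in mt-atp8. The 7 mitochondrial subunits of complex I had median ratios of -0.69 (wild type) and -0.88 (mutant). The short mt-nd4l had 38332, 51173, 34233 and 36331 reads, highest in the mutant uninjured library, with ratios of -0.58 and -0.93. MT-ND5 had 275550, 354574, 229127 and 256393 reads, also highest there, with ratios of -0.68 and -0.91. The values for mt-atp8 were 20677, 25082, 20985 and 20354 reads, with ratios of -0.39 and -0.74. MT-ND1 had -0.69 and -0.81, MT-ND2 -0.64 and -0.82, and MT-ND4 -0.78 and -0.88, whereas MT-ND3 had -0.81 and -0.80. Across the 13 genes the 2 injury ratios had a Pearson r of 0.134. The genes for mt-nd4l and MT-ND4, and for mt-atp8 and MT-ATP6, overlap in vertebrate mitochondrial genomes, and how reads in such overlaps were counted is not given in the sources used here.

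**Figure D4:**
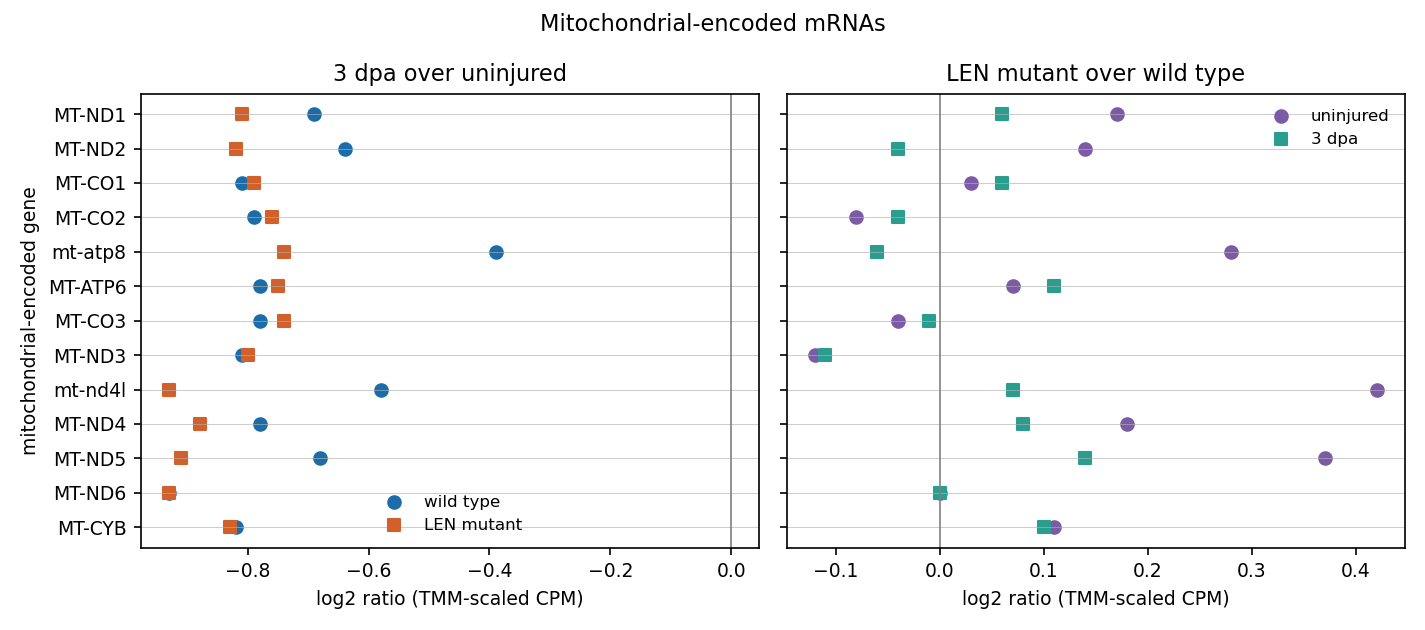
Log2 ratios (horizontal axes) of the 13 protein genes of the mitochondrial genome, 3 dpa over uninjured in wild type and LEN mutant (left) and mutant over wild type in uninjured and 3 dpa hearts (right). All points on the left lie below 0, and mt-nd4l and mt-atp8 have the widest gap between the genotypes. The 2 points of MT-ND6 coincide at -0.93, and on the right mt-nd4l and MT-ND5 reach 0.42 and 0.37 in uninjured hearts.

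Between the genotypes no member passed 2-fold. In uninjured hearts 4.09% of all tested genes passed as lower and 3.92% as higher in the mutant, and at 3 dpa 0.769% and 2.24% did. At the 1.5-fold limit COX4I2 was lower in the mutant in uninjured hearts, at -0.93 (-1.14 to -0.72), against a background of 8.29% lower and 9.32% higher. At 3 dpa SDHD (ENSDARG00000055712) and UQCRB, a subunit of complex III, were lower and COX5B (ENSDARG00000113254) was higher, against 2.34% lower and 5.92% higher. All 3 had under 100 reads in every library, with 89, 69, 94 and 57 for UQCRB.

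Small differences nevertheless ran one way among the nuclear subunits. In uninjured hearts 90 of 91 nuclear structural subunits were below 0, with a median of -0.19, where 8730 of 16509 tested genes were below 0 and their median was -0.03. Complex I had 36 of 36 below 0 with a median of -0.18, complex IV 23 of 23 with -0.25, and complex V 18 of 18 with -0.19. The mitochondrial members lay on the other side, with 4 of 13 below 0 and a median of 0.11, and were led by mt-nd4l at 0.42 (0.40 to 0.44) and MT-ND5 at 0.37 (0.36 to 0.38). At 3 dpa, in libraries that share none with the uninjured comparison, 75 of 91 nuclear subunits were below 0 with a median of -0.10, and 5 of 13 mitochondrial members with a median of 0.06. There 8311 of all tested genes were below 0, or 50.3%, and their median was -0.00. With 1 library per genotype and stage, genotype and the difference between single samples cannot be told apart. The uninjured comparison also uses the library with hepatocyte markers, and the 7 erythroid markers were all lower in the mutant, with a median of -0.39 uninjured and -0.25 at 3 dpa. The 14 cell cycle genes were all lower in the mutant uninjured library as well, with a median of -0.70, and had 0.02 at 3 dpa. The cardiomyocyte markers had medians of 0.10 and -0.09. The part of these marker lists in the result was not tested. Single members at 3 dpa were less stable, since 18 changed sign under another scaling, against 1 in uninjured hearts. Across scalings the median of the nuclear subunits stayed between -0.21 and -0.18 uninjured and between -0.12 and -0.07 at 3 dpa.

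Genes that feed and surround the chain were read from lists of genes outside the members. Beside them, 6.76% of all tested genes fell in wild type and 5.62% in the mutant. In the citric acid cycle, which supplies the electrons, the 19 tested genes had medians of -0.88 in both genotypes, and 4 fell in wild type and 3 in the mutant. Citrate synthase, CS, which opens the cycle, had 1348, 1436, 667 and 682 scaled CPM and fell in both, at -1.02 and -1.07. Malate dehydrogenase MDH2, which closes it, had 2293, 2104, 1121 and 1016 and fell in both, at -1.03 and -1.05. ATP export and use, a list of adenine nucleotide carriers and creatine kinases, had 14 tested genes with medians of -0.89 and -0.78, and 6 fell in each genotype. The nucleotide carrier SLC25A5 had 13780, 12880, 5581 and 5419 scaled CPM and fell at -1.30 and -1.25. Both IDs of the mitochondrial creatine kinase CKMT2 fell, at -1.42 and -1.47 (ENSDARG00000039929) and at -1.41 and -1.35 (ENSDARG00000069615). The carrier SLC25A4 fell at -2.89 and -3.09 and the muscle creatine kinase ckmb at -1.50 and -2.36. The uncoupling protein gene ucp3 fell in the mutant, at -1.22, and had -0.90 in wild type. Its relative UCP1 had 1982 reads in the wild-type uninjured library and 1, 6 and 4 in the others, so its fall in wild type rests on the library with hepatocyte markers.

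Other mitochondrial gene lists were lower to different degrees. The background was again 6.76% of all tested genes lower and 13.2% higher in wild type, and 5.62% and 14.7% in the mutant. The 20 genes of coenzyme Q synthesis and electron entry had medians of -0.64 and -0.44, and 4 and 3 fell. Their summed level had log2 ratios of -0.83 and -0.84, about those of the nuclear structural subunits at -0.84 and -0.74. ETFDH, which passes electrons from fatty acid oxidation to coenzyme Q, fell in both genotypes, at -1.13 and -1.01. The proline dehydrogenase gene prodha fell too, at -1.06 and -1.83. The 17 genes of inner membrane organisation had medians of -0.49 and -0.57, with 1 that fell in wild type and none in the mutant. The 42 other assembly factors of the respiratory complexes had -0.41 and -0.44, and none rose or fell. Genes for the upkeep and expression of the mitochondrial genome (25 tested) had -0.16 and -0.18, with -0.39 and -0.50 for their summed level. In wild type mterf3 fell and top1mt rose, and in the mutant MTERF2 fell. The 13 mitochondrial genes had medians of -0.78 and -0.81 beside -0.16 and -0.18 for the nuclear genes of their expression.

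**Figure D5:**
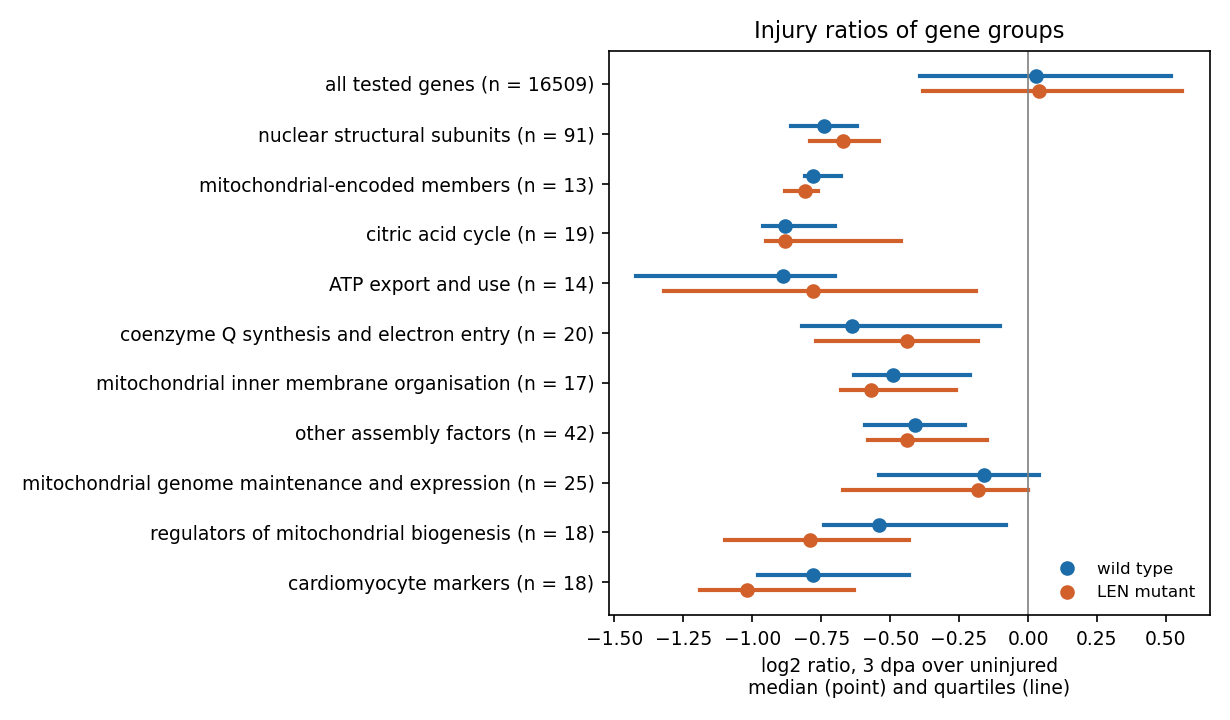
Median (point) and quartiles (line) of the log2 ratio of 3 dpa over uninjured in gene groups, for wild type and LEN mutant. The medians of the subunits of both genomes, the citric acid cycle and the ATP export genes lie between -0.9 and -0.6. Those of the cardiomyocyte markers lie at -0.78 and -1.02. The genome expression genes have medians of -0.16 and -0.18, beside 0.03 and 0.04 for all tested genes. Their lower quartiles are -0.54 and -0.67, beside -0.39 and -0.38.

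Regulators of mitochondrial biogenesis had medians of -0.54 in wild type and -0.79 in the mutant over 18 tested genes. Of these genes 3 and 7 fell, where 6.76% and 5.62% of all tested genes did. PPARGC1A, the coactivator PGC-1 alpha that drives mitochondrial biogenesis in mammals, had 37.7, 87.4, 20.2 and 27.6 scaled CPM. It was highest in the mutant uninjured library, fell in the mutant at -1.66 (-1.77 to -1.56) and had -0.90 (-1.04 to -0.77) in wild type. Between genotypes it was over 2-fold higher in the mutant in uninjured hearts, at 1.21 (1.11 to 1.32), and had 0.45 (0.32 to 0.59) at 3 dpa. Of all tested genes, 3.92% passed 2-fold as higher in the mutant in uninjured hearts and 2.24% at 3 dpa. The uninjured comparison uses the library with hepatocyte markers. PPARA, the fatty acid sensing nuclear receptor, had 137, 476, 70 and 218 reads and fell in both genotypes, at -1.36 and -1.56. It was higher in the mutant libraries at both stages, at 1.79 (1.52 to 2.09) and 1.59 (1.23 to 2.03). The oestrogen-related receptor ESRRA had 50.8, 83.8, 33.9 and 31.4 scaled CPM and fell in the mutant, at -1.42, with -0.58 in wild type. The muscle regulator perm1b fell in both, at -1.04 and -1.09. In the mutant pparaa, perm1a and nrip1b also fell, at -1.11, -1.12 and -1.02, and in wild type GABPB1 fell, at -1.12. By contrast NRF1, the nuclear respiratory factor, had 25.7, 27.1, 27.9 and 26.3 scaled CPM and ratios of 0.11 and -0.04, and GABPA, part of nuclear respiratory factor 2, had -0.07 and -0.24. PPARGC1A, PPARA and ESRRA were highest in the mutant uninjured library. That library enters both their injury ratios in the mutant and their genotype ratios in uninjured hearts, so these are not separate observations. Mutant over wild type in uninjured hearts, the nuclear structural subunits had a median of -0.19. The mitochondrial members had a median of 0.11, with 9 of 13 above 0. A link between these regulators and the members was not tested.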

How the data were processed

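For each of the 4 libraries the authors deposited whole-number read counts per Ensembl gene ID, without normalization. HISAT2, featureCounts and the build GRCz11 are named per the submitters' processing notes. How strand and multi-mapping reads were handled, and with which annotation, is not given in the sources used here, so counts of near-identical paralogues, overlapping genes and antisense genes are uncertain. Per the file headers, each library came from 1 file of first reads on lane 8. Symbols came from a gene name table, which paired 29201 of the 32520 IDs, and are printed as given there.

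Counts were scaled with TMM in edgeR 4.0.16 (R 4.3.3), with factors of 0.910, 0.898, 1.095 and 1.118. Log2 ratios used a prior count of 2. The 16509 genes that reached 1 scaled CPM in any library were tested. With 1 library per group, DESeq2 and the quasi-likelihood test of edgeR could not be fitted. Ratios therefore carry exact 95% Clopper-Pearson intervals from the conditional binomial distribution, and the difference of injury ratios a delta-method interval. The floor was 3 counts. Both cover counting error only, because these reads carry no molecular identifiers and need not be independent molecules. The procedure was run on simulated counts with counting error only and with changes larger than those of most members. That run held no spread between hearts, so it cannot check the calls against such spread. Intervals were computed with scipy 1.17.1 and numpy 2.4.6 under Python 3.11.15, tables with pandas 2.3.3 and plots with matplotlib 3.10.9.

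Named genes were all mitochondrial members, the paired-copy families, the 2 most abundant nuclear members and those with the lowest and highest mean injury ratio in each complex, members past 2-fold in a genotype comparison, and from the lists the genes past 2-fold in both injury comparisons and the biogenesis regulators. NDUFV2, UQCRB, SDHAF4, UCP1, ucp3, mterf3, top1mt and MTERF2 were added after their values were seen. The COX5B genes, which were not among the planned paired-copy families, and the SDHD gene with injury ratios below 0 were also named outside these rules. The members and lists were chosen with earlier results of these data known. Symbols were matched exactly or without a copy suffix, at 81.2% to 100% of a list's symbols, except 77.3% for cardiomyocyte and 63.6% for erythroid markers. Endothelial markers (11 tested) had median injury ratios of -0.47 and -0.38, and cell cycle genes (14 tested) 3.15 and 3.79. A planned search of promoters for motifs was not made, because no sequence was used here. Alternatives were other scalings, prior counts, filters, the 1.5-fold limit and leaving out the wild-type uninjured library.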

Additional observations from a re-analysis of the deposited data

Results flagged for a closer look

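In 4 members the injury ratio pointed one way in the wild-type pair of libraries and the other way in the mutant pair. With 1 library per group these differences between genotypes were not tested. The mutant minus wild-type difference was 0.60 for COX4I2, where the counting intervals of both ratios excluded 0 and scaling by total count made the wild-type ratio positive. It was 0.93 for COX5B (ENSDARG00000113254), with 26 to 49 reads per library, 0.49 for NDUFAF8 and 0.44 for SDHAF4, an assembly factor of complex II. For COX5B (ENSDARG00000113254) and NDUFAF8 the interval of the difference included 0.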

How the results depend on the processing

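No paired analysis was possible because each group had 1 library and the replicate numbers follow only the order of the samples. Depth limits the members under 100 reads, and no alternative can supply the spread between hearts.

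Counts of members past the threshold depended on the fold limit and on the scaling. Scaling by total count shifted the median of all tested genes to 0.30 in wild type and 0.36 in the mutant, from 0.03 and 0.04. Under it 2 members fell and 4 rose in wild type, 1 fell in the mutant (all tested genes: 3.78% fell and 18.8% rose in wild type, 2.11% fell in the mutant), and the injury medians were -0.47 and -0.35 for nuclear subunits and -0.51 and -0.49 for mitochondrial members. The nuclear median between genotypes at 3 dpa was then -0.07, and the medians of the difference of injury ratios were 0.13 (nuclear) and 0.04 (mitochondrial). With upper-quartile scaling, where the median of all tested genes was -0.08 in both, 20 members fell in wild type and 14 in the mutant (8.75% and 8.02% of all tested genes), with medians of -0.84 and -0.79 (nuclear) and -0.89 and -0.93 (mitochondrial). With DESeq2 size factors 7 members fell in the mutant (6.75% of all tested genes), whose nuclear median was -0.73, and the wild-type mitochondrial median was -0.82. These shifts follow from the scaling factors. A minimum of 10 CPM left 1 member that rose in wild type (10.5% of all tested genes), because fewer genes were tested. At the 1.5-fold limit 95 members passed in wild type, 82 in the mutant, 1 and 3 between genotypes uninjured and at 3 dpa, and 2 for the difference. As a share of counts without mitochondrial genes the nuclear members were 3.31%, 2.95%, 2.12% and 2.10%. Of the 16 calls on single members, 7 were lost under total count and 1 under upper quartile, and none reversed. Counts and medians under the remaining settings stayed within the same limits. Computing the scaling without the wild-type uninjured library, an alternative chosen after seeing the data, left the same 2 falls and 4 rises in the mutant by count.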
